A study of Mus musculus with 6 samples.

Results

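Ureter RNA of newborn mice lacking Ahnak was compared with ureter RNA of WT mice, using 1 RNA-seq library of each genotype. The genes described are those with 100 or more estimated read counts in the higher of the 2 ureter libraries, which kept 13488 of the 24532 genes in the table. At the edge of that minimum, 156 genes had 100 to 110 counts in the higher library and 132 genes with 90 to 99 counts were left out. Besides these, the series of PN1 mice holds 4 bulk kidney libraries, 2 of each genotype. Ahnak KO mice carry a germline disruption of the fifth exon of the Ahnak gene, and WT mice are the untreated controls. The study's methods state that several kidneys or ureters were collected per RNA sample, so a ureter library may be a pool of animals. The sample titles call both ureter libraries kidney, while their tissue labels call them ureter. With 1 library a genotype there was no spread between ureter replicates, so the values describe these 2 libraries and no p-value was computed from them alone.

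Ahnak encodes a giant scaffold protein that lies under the cell membrane and is known for its contact with calcium channels. The ureter is a tube in which a urothelium of layered epithelial cells is wrapped by connective tissue, smooth muscle and an outer coat, and the muscle carries urine from kidney to bladder. Around birth the tissue still grows, holds vessels, nerves and immune cells, and its epithelium and mesenchyme signal to each other through Hedgehog, WNT, BMP and FGF proteins.

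Ahnak itself (gene number 66395, GRCm38, chromosome 19, 8989284 to 9076935) had 18895 counts in the Ahnak KO ureter and 37439 counts in the WT ureter. After scaling this was 555 and 637 CPM (counts scaled to library size and TMM factors, edgeR's correction for library composition), a log2 ratio of -0.20. All log2 ratios below are those of CPM + 0.5, Ahnak KO over WT, which understate the difference of low genes. Counts at this locus therefore did not separate the 2 libraries as a deletion of the whole transcript would, and which exons the counts came from was not analysed here.

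The tissue label was checked against defining markers. The smooth muscle genes Acta2, Myh11, Cnn1, Tagln and Des had 5147 to 175045 counts in the ureter libraries, and the urothelial genes Upk1a, Upk1b, Upk2, Upk3a, Krt5 and Trp63 had 6536 to 97871. The kidney tubule and podocyte genes Umod, Slc12a1, Slc34a1 and Nphs1 were at 0 in both, and Lrp2 had 8 counts in the Ahnak KO and 31 in the WT ureter, against 17522 to 29093 in the kidneys. Both ureter libraries had counts on the Y chromosome genes Ddx3y, Uty, Kdm5d and Eif2s3y, 8415 and 15030 together, and 17 and 36 counts of Xist.

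The Ahnak KO ureter library held 36410246 counts and the WT ureter library 54985927, so 3 counts stood for 0.0881 and 0.051 CPM. The precursor of ribosomal RNA, Rn45s, took 8.06% of the counts in the Ahnak KO ureter and 0.626% in the WT ureter, against 0.496% to 0.632% in the 4 kidney libraries. Leaving Rn45s out of the library sizes, with no TMM factors, gave a median log2 ratio of -0.10 over all genes. With it 342 genes were more than 2-fold higher and 742 lower. List medians less the median of all genes can hardly move under such a rescaling, so they do not measure the effect of Rn45s. Fold limits for genes at 0 put 3 counts in place of the 0, and intervals are exact 95% binomial intervals of the ratio of the counts without the added 0.5 CPM. For low genes the log2 ratio can therefore lie outside its interval. Limits and intervals cover counting error alone.

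Of the 13488 genes, 393 (2.91%) were more than 2-fold higher and 628 (4.66%) more than 2-fold lower in the Ahnak KO ureter, and 79.0% lay within 1.5-fold. These 2.91% and 4.66% are the background for every list count below, and a count near them sets no list apart. More than 4-fold, 84 genes were higher and 82 lower. In the Ahnak KO library 33 of the lower genes were at 0, and 8 of the higher genes had no count in the WT ureter. With TMM factors 61.5% of the genes past 2-fold were lower. Scaling by library size alone moved the median log2 ratio of all genes from -0.02 to -0.20 and the share of lower genes to 77.5%, so list medians are given below less the median of all genes wherever they are set against other samples.

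The only replicates in the series are the kidney pairs. Between the 2 Ahnak KO kidneys 2.76% of genes were past 2-fold in either direction, between the 2 WT kidneys 2.04%, and between the ureters 7.57%. Replicate 1 of the Ahnak KO kidneys had 176348 counts of Xist and 0 on the 4 Y chromosome genes, so that pair also differs in sex. Among the genes past 2-fold in ureter, 12.6% were also past 2-fold between the 2 kidneys of 1 genotype, against 2.31% of the genes within 2-fold. An edgeR quasi-likelihood fit of all 6 libraries takes its spread from the kidney pairs alone, with 2 residual degrees of freedom. For the ureter contrast it gave an adjusted p under 0.05 to 49 higher and 51 lower genes of 17557 tested (0.57%), and an unadjusted p under 0.05 to 1348 and 1903. These p-values assume that ureters vary as kidneys do and that the libraries are unrelated. In the table each ureter column carries the same tag as replicate 2 of the kidneys of its genotype, and what the tag marks is not stated. For several groups below replicate 2 of the kidneys lay on the same side of replicate 1 as the ureters did of each other, so the kidney pairs may not be an independent spread for them.

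**Figure D1:**
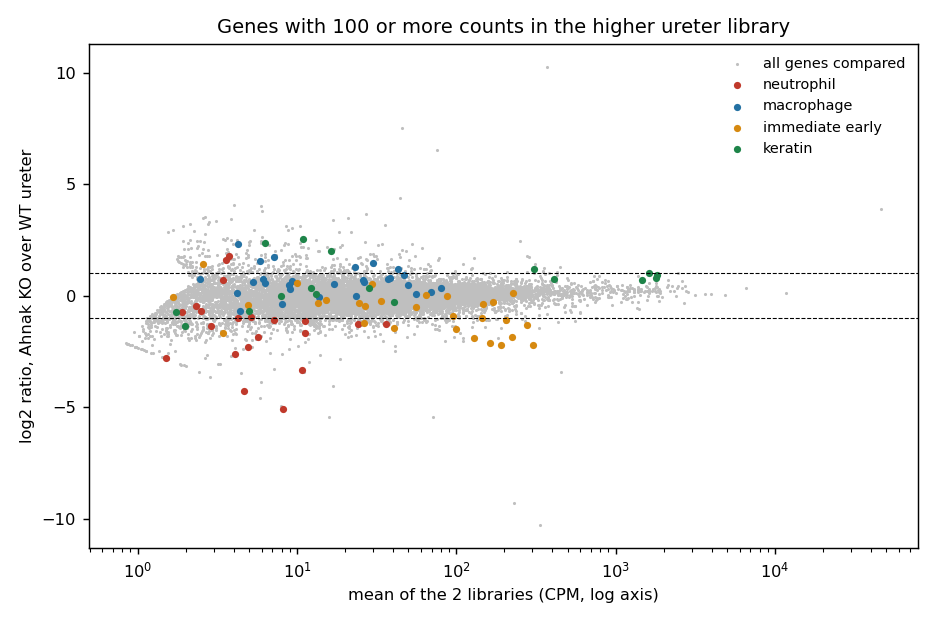
Each point is 1 of the 13488 genes, with the mean CPM of the 2 ureter libraries on a log axis and the log2 ratio of Ahnak KO over WT ureter on the vertical axis. Dashed lines mark 2-fold. Neutrophil genes (red) lie mostly under the lower line, macrophage genes (blue) mostly above 0, immediate early genes (orange) reach well under the lower line at high CPM and keratins (green) lie mostly above 0.

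Among the 15 lowest ratios stood Pou3f3, Spry1 and Neat1, together with the neutrophil genes Mpo and Camp described below. Pou3f3 (chromosome 1, 42695768 to 42700210), a transcription factor of kidney and brain development, had 0 counts in the Ahnak KO and 970 in the WT ureter, which is at least 187-fold lower. Spry1 (chromosome 3, 37639947 to 37644599), an inhibitor of receptor tyrosine kinase signalling, had 50 and 1894 counts, a log2 ratio of -4.06. Neat1 (chromosome 19, 5824708 to 5845480), a nuclear RNA that builds paraspeckles, had 2593 and 48900 counts, a log2 ratio of -3.44 with an interval of -3.51 to -3.39. In the kidneys Pou3f3 had 3398 to 4122 counts, Spry1 5723 to 7366 and Neat1 18323 to 22263, so the Ahnak KO ureter lay below all 4 kidneys for each gene, while the WT ureter lay below them for Pou3f3 and Spry1 and above them for Neat1. All 3 genes passed the fit of 6 libraries, with edgeR adjusted p = 0.00254 for Pou3f3, 0.00712 for Spry1 and 0.00586 for Neat1.

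At the other end, Adgrf4, an adhesion G protein-coupled receptor, had 1722 counts in the Ahnak KO and 204 in the WT ureter, a log2 ratio of 3.68 (edgeR adjusted p = 0.0373). Lrrc8d (chromosome 5, 105699963 to 105815215), a subunit of volume-regulated anion channels, had 1066 and 150 counts, a log2 ratio of 3.38 (edgeR adjusted p = 0.00836). Zbtb16, a zinc finger transcription factor that glucocorticoids are known to induce, had 1324 and 180 counts, a log2 ratio of 3.47. Prg4, which encodes the lubricant lubricin, had 176 and 0 counts, a difference of at least 101-fold, and Ifi205 had 253 and 13. The uncharacterized LOC106557447, with 179 and 0 counts, was at least 103-fold higher. The 15 highest ratios also held 3 non-coding RNAs. Mir6236 had 2905 and 209 counts, Rmrp, the RNA of an RNA-processing enzyme, 399 and 22, and Rn45s 2935456 and 344290.

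Some of the most extreme ratios belonged to genes with near-identical copies or overlapping neighbours. The adult beta globin genes Hbb-bs (1 and 39267 counts) and Hbb-b1 (25300 and 6 counts) differed in opposite directions, as did Hba-a2 (8 and 27114) and Hba-a1 (14345 and 4521). Summed over 4 genes, adult beta globin had 36755 counts in the Ahnak KO and 58146 in the WT ureter, a log2 ratio of 0.13. Summed adult alpha globin had a log2 ratio of -0.35. The same switch was seen between kidneys of 1 genotype, where Hbb-b1 had 6 and 48137 counts in the 2 WT kidneys and Hba-a2 had 11 and 21065 in the 2 Ahnak KO libraries. The single globin ratios are therefore uncertain.

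The same held for other near copies and readthrough genes. Amd1 had 1 and 936 counts, while Amd1 and Amd2 together had a log2 ratio of 0.06. Pnp2 had 272 and 0 counts, while Pnp and Pnp2 together had 0.27. Setdb2 (0 and 686 counts) overlaps the readthrough gene Setdb2-phf11c (397 and 15), and with Phf11c they summed to a log2 ratio of -0.43. Dpm1 and Dpm1-adnp were at 1.88 and -1.82 and at -0.03 together. Fsbp (205 and 8 counts) and Rad54b (78 and 1259) summed to -1.32, and Prnd (8 and 1838 counts) and Prn (131 and 0) to -2.79, so both of these loci stayed past 2-fold. In all, 21 overlapping pairs, of 28 genes, were past 2-fold in opposite directions. Overlap with another gene was about as common among genes past 2-fold (29.7%) as among all genes compared (27.7%). Other extreme genes that overlap a neighbour are Prg4 (Tpr), Adgrf4 (Adgrf2), LOC106557447 (Mir31), LOC109729085 (Rpp14), Sap25 (Gm20605) and Klhdc7a (Mir2139). Whether their counts hold reads of the neighbour was not tested, so their ratios and fold limits carry the same doubt. Klhdc7a had 3092 and 0 counts in the ureters and 0, 0, 2861 and 0 in the kidneys. Of the 30 genes with the most extreme ratios, 11 were also past 2-fold between kidneys of 1 genotype, among them Klhdc7a, Pnp2, Amd1, Sap25, Wdr78, Ak4 and Zbtb16. Gm12191 (92 and 8221 counts) lies within Cnot6 (5741 and 10024 counts, log2 ratio -0.02), and the uncharacterized LOC109729085 had 0 and 335 counts, which is at least 64.7-fold lower.

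Neutrophil genes were the group with the largest shift. Of 29 listed genes 21 were compared, 14 were more than 2-fold lower and 2 higher, with a median log2 ratio of -1.26. Only 7 of the 21 had 100 or more counts in both libraries. The others passed the minimum through 1 library alone, which favours large ratios. For these 7 genes the list median, less that of all genes, was still past 2-fold lower. The same held for the 28 genes with 10 or more counts in the higher library. In bulk tissue, fewer cells of a type and less RNA per cell cannot be told apart. The primary granule genes are made in the bone marrow by immature neutrophils. Mpo (chromosome 11, 87793784 to 87804412), the peroxidase of these granules, had 0 counts in the Ahnak KO and 957 in the WT ureter, a difference of at least 185-fold. The elastase Elane had 0 and 176 counts and so was lower by at least 34-fold. The protease Prtn3 had 45 and 502 counts, a log2 ratio of -2.31. Together the 4 primary granule genes, with Ctsg, came to 2.73 CPM against 32.2 CPM.

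The secondary granule genes Camp, Ngp, Ltf and Lcn2 followed the same direction. The antimicrobial peptide gene Camp, with 0 and 545 counts, was at least 105-fold lower, and Ngp had 52 and 1176, a log2 ratio of -3.34. The iron-binding Ltf had 27 and 435 counts and Lcn2 151 and 580. S100a8 and S100a9, the calcium-binding pair that fills the cytosol of mature neutrophils, were at -1.28 and -1.26 and together at 34.9 against 85.7 CPM. The 2 members past 2-fold in the other direction passed the minimum only through the Ahnak KO library. Retnlg had 206 and 83 counts and the collagenase Mmp8 192 and 88, log2 ratios of 1.78 and 1.62. The list thus ran from genes at 0 in the Ahnak KO ureter to 2 genes more than 3-fold higher there. Among neutrophil genes under the minimum, Csf3r (23 and 90 counts), Cd177 (0 and 75), Ly6g (0 and 36) and Padi4 (0 and 50) were lower there. Cxcr2 (22 and 14) was higher. In the kidneys Mpo had 0 to 7 counts and Elane 0 in each library, so the WT ureter stands apart from all 5 other libraries for these 2 genes. No gene of the list had an adjusted p under 0.05 in the edgeR fit of 6 libraries.

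Macrophage genes lay on the other side. Of 31 listed genes 28 were compared, 6 were more than 2-fold higher and 0 lower, and 24 of the 28 lay above the median of all genes. The list median was 0.62. Ms4a7, a membrane protein of resident macrophages, had 254 counts in the Ahnak KO and 63 in the WT ureter, a log2 ratio of 2.34. The haemoglobin scavenger receptor Cd163 had 383 and 179 counts and Aif1 308 and 160, log2 ratios of 1.73 and 1.57. The Fc receptor Fcgr3 was at 1.45, its signalling partner Tyrobp at 1.27 and the chemokine Pf4 at 1.18. The defining receptor Csf1r (1089 and 1220 counts) was at 0.61, Adgre1 at 0.47 and Mrc1 at 0.18. The 3 chains of complement C1q summed to 157 against 87.7 CPM. Cybb, the oxidase subunit shared with neutrophils, was at -0.67 and Cx3cr1 at -0.36.

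Of 19 cytokine and chemokine genes compared, 6 were more than 2-fold higher and 3 lower, with a list median of 0.20. Of the 6 higher genes 5 were chemokines of the Ccl family. Ccl6 had 539 and 80 counts, a log2 ratio of 3.13 with an interval of 3.20 to 3.90. Ccl12 (387 and 114 counts), and Ccl9 (1046 and 373) were at 2.28 and 2.19, Ccl7 was at 1.34, and Ccl2 had 405 and 153 counts. Summed over these 5 genes, which were picked for their ratios, the level was 75.3 CPM in the Ahnak KO and 14.1 CPM in the WT ureter, a log2 ratio of 2.37. In the kidneys the same sum was 7.2 and 16.6 CPM in Ahnak KO replicates 1 and 2 and 12.6 and 5.17 CPM in WT replicates 1 and 2, so the replicates that share a tag with the ureters differed in the same direction. Other members of the family were under the minimum of 100 counts and lower in the Ahnak KO ureter, with 9 and 19 counts of Ccl3 and 24 and 83 of Ccl4. The alarmin Il33 had 4042 and 2143 counts, a log2 ratio of 1.69. The neutrophil attractant Cxcl2 had 13 and 298 counts, a log2 ratio of -2.66, and the B cell attractant Cxcl13, with 0 and 218, was at least 42.1-fold lower. Cxcl14 was at -1.61 and Cxcl12, the chemokine with the most counts, at -0.19.

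Of 39 interferon response genes, 5 were more than 2-fold higher and 0 lower, with a median of 0.30. Ifi47, Ifi27l2a and Ifit3 were at 1.92, 1.89 and 1.78, while Isg15 (511 and 827 counts) was at 0.09. Of 17 antigen presentation genes, H2-Aa (215 and 42 counts) and H2-Eb1 (128 and 87) were past 2-fold, at 2.49 and 1.10, while Cd74, the invariant chain that pairs with them, was at 0.15. Both H2 genes passed the minimum only through the Ahnak KO library. Among the lymphocyte, dendritic and mast cell genes only 9 of 37 could be compared and 3 were past 2-fold higher. These were Cd79b of B cells (118 and 53 counts), Cpa3 of mast cells (4600 and 3637 counts) at 1.12 and the receptor Kit at 1.07. Cd79b passed the minimum only through the Ahnak KO library. With a minimum of 10 counts the list median, less that of all genes, went from 0.35 to -0.20. Kit is not a marker of mast cells alone. The study used it (c-kit) for Cajal-like interstitial cells of the ureter. It reported c-kit reduced in Ahnak KO ureters by qPCR, and fewer c-kit positive cells by immunostaining. The ratio in these 2 libraries lay in the other direction. The mast cell protease Mcpt4 was at -0.75, so 4 mast cell protease genes summed to a log2 ratio of 0.60. Complement and acute phase genes had a median of 0.10, with C3 at 1.33 and Lrg1 at -1.58 as the ends.

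**Figure D2:**
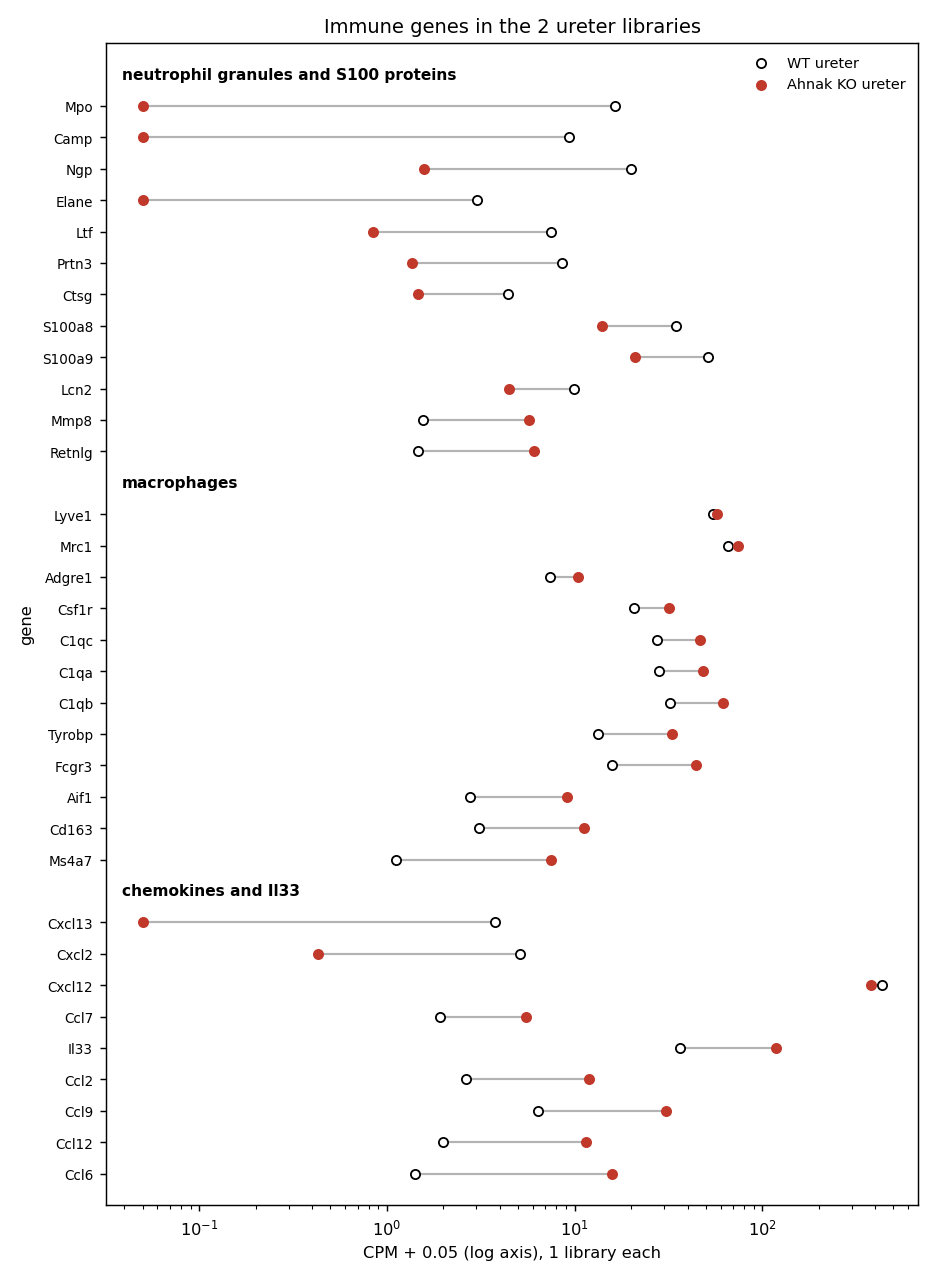
CPM + 0.05 of immune genes in the WT ureter (open circles) and the Ahnak KO ureter (red), 1 library each, on a log axis. Most neutrophil genes lie to the left in the Ahnak KO library, with Mpo, Camp and Elane at 0. Retnlg, Mmp8, the macrophage genes and the Ccl chemokines lie to the right.

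Immediate early genes are switched on within minutes of a stimulus and need no new protein. Of 35 listed genes 29 were compared, 11 were more than 2-fold lower and 1 higher in the Ahnak KO ureter, with a list median of -0.46. Fos, which joins Jun in the AP-1 factor, had 2304 and 18567 counts, a log2 ratio of -2.21 with an interval of -2.29 to -2.16. Btg2, which restrains proliferation, had 3672 and 29084 counts, Zfp36, which marks messengers for decay, 2080 and 15547, and the nuclear receptor Nr4a1 1821 and 11977. Their log2 ratios were -2.19, -2.11 and -1.92. Jun (3287 and 20765 counts) was at -1.87, the phosphatase Dusp1 at -1.48, and Egr1 (5469 and 23342) at -1.30. The only member past 2-fold in the other direction was Egr3 (134 and 69 counts) at 1.41, and Myc was at 0.52. The whole list summed to 1805 CPM in the Ahnak KO and 3831 CPM in the WT ureter. The kidneys also varied within a genotype, with 5124 and 360 counts of Fos and 21792 and 5812 of Egr1 in the 2 Ahnak KO kidneys, and the list median of replicate 1 over replicate 2 was 0.62 there and 0.05 in the WT kidneys, against -0.44 in ureter (all less the median of all genes). The Ahnak KO pair with the wide difference also differs in sex.

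Heat shock and unfolded protein genes had a median of -0.20 over 21 genes, 4 lower and 1 higher past 2-fold. The inducible chaperones Hspa1a (1438 and 8943 counts), Hspa1b (2803 and 12844) and Hsph1 were at -1.84, -1.40 and -1.38, while the constitutive Hspa8 was at -0.30. Between the 2 WT kidneys Hspa1a had 1625 and 10747 counts. Asns, the asparagine synthetase of the amino acid response, was at 1.38.

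Hypoxia genes, the targets of the HIF factors that are degraded where oxygen is plentiful, were lower on balance. Of 37 listed genes 33 were compared, 7 were more than 2-fold lower and 2 higher, with a median of -0.46. Ak4, a mitochondrial adenylate kinase, had 50 counts in the Ahnak KO and 1215 in the WT ureter, a log2 ratio of -3.43. Ankrd37 had 49 and 532 counts and the repressor Bhlhe40 296 and 1949, log2 ratios of -2.30 and -1.87. The glucose transporter Slc2a1 (1351 and 6737 counts) was at -1.52, the vascular growth factor Vegfa at -1.44, the collagen hydroxylase P4ha1 (1861 and 8374) at -1.37 and the mTOR inhibitor Ddit4 at -1.09. Angptl4 (2577 and 1450 counts), which inhibits lipoprotein lipase, and the carbonic anhydrase Car9 (170 and 107), which overlaps Arhgef39, were higher at 1.60 and 1.24. The factors themselves, Hif1a and Epas1, were at 0.43 and 0.12. Of 17 glycolysis genes 16 lay under the median of all genes, and the lactate transporter Slc16a3 and the enolase Eno2 passed 2-fold at -1.24 and -1.14. Gapdh and Pkm were both at -0.08. Of replicate 1 over replicate 2, the hypoxia median was -0.58 in the WT and 0.34 in the Ahnak KO kidneys and the glycolysis median -0.68 and 0.32, against -0.44 and -0.36 in ureter. The WT pair thus differed by more than the ureters and the Ahnak KO pair by less, and in both replicate 2 lay on the side of the ureter with its tag. P4ha1, for example, had 2889 and 11081 counts in the 2 WT kidneys.

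The promoters of these genes were searched for the core letters of the hypoxia response element, ACGTG or GCGTG, on both strands, and those of the immediate early genes for the cAMP response element TGACGTCA. The window ran from 250 bases before to 50 after each start in RefSeq (GRCm38.p6), and the core letters can overlap each other, as in the first sequence. At least 1 core stood in 24 of the 25 hypoxia genes with a promoter in the reference, in 19 of 24 immediate early genes (79.2%) and in 46.7% of all 27025 genes with one. The cAMP response element stood in 4 of 24 immediate early genes (16.7%) and in 2.03% of all. The hypoxia list names known HIF targets, so its share describes the list and not the 2 libraries, and a match is not a site. The stretches below lie before the start, outside annotated exons, and were chosen after the matches were seen, for members of either list that were past 2-fold lower. They are printed on the strand of the gene, with matches on either strand in capitals, of the hypoxia core in the first 3 sequences and of the cAMP response element alone in the last 2.
Ankrd37 (chr8:45999978-46000100, minus strand): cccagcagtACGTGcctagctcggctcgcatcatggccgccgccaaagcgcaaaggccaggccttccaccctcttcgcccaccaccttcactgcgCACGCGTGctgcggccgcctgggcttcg
P4ha1 (chr10:59323113-59323295, plus strand): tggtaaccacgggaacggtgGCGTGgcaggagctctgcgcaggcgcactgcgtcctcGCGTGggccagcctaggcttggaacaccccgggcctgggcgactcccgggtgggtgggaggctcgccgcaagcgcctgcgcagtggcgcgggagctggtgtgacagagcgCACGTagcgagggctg
Ddit4 (chr10:59951861-59951977, minus strand): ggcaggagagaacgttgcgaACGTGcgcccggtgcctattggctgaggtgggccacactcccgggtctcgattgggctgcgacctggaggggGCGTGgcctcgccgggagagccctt
Btg2 (chr1:134079294-134079341, minus strand): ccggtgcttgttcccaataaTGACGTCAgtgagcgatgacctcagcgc
Dusp1 (chr17:26508588-26508635, minus strand): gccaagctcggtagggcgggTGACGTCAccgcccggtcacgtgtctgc

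Some genes of the glucocorticoid and oxidative responses were past 2-fold higher in the Ahnak KO ureter. Besides Zbtb16, the immunophilin Fkbp5, a known glucocorticoid target, had 2997 and 1009 counts, a log2 ratio of 2.32. Tsc22d3, another such target, was at 0.95 and Sgk1 at 0.83, while Per1 was at 0.01. Among the kidneys Zbtb16 had 101 and 786 counts with the Ahnak KO genotype and 83 and 87 with the WT genotype, and Fkbp5 2273 and 4416 against 2536 and 2409, so Ahnak KO kidney replicate 2 stood above the other kidneys for both. The whole list of 22 retinoid and steroid genes had a median of 0.18, with 2 past 2-fold higher and 0 lower. Hmox1, the haem oxygenase of the oxidative response, had 3387 and 1306 counts, a log2 ratio of 2.14. It also had 1165 and 7071 counts in the 2 Ahnak KO kidneys. Srxn1 and Slc7a11 were at 1.09 and 1.06, and Nqo1 at -0.08, in a list of 12 genes with a median of 0.29.

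**Figure D3:**
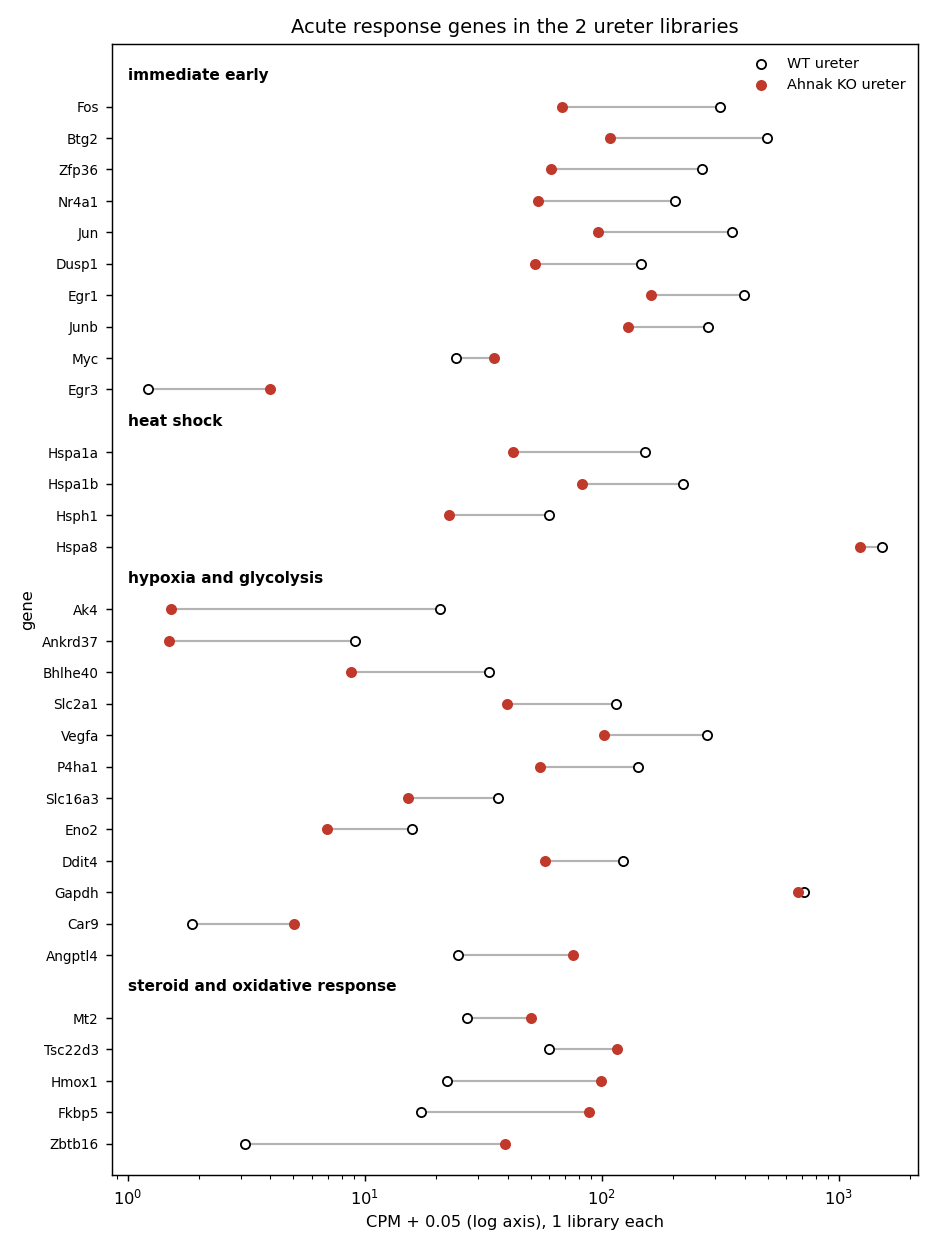
CPM + 0.05 of acute response genes in the WT ureter (open circles) and the Ahnak KO ureter (red), 1 library each, on a log axis. Most immediate early, heat shock and hypoxia genes lie to the left in the Ahnak KO library, while Myc, Egr3, Car9, Angptl4, Hmox1, Fkbp5 and Zbtb16 lie to the right.

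Vessels gave mostly small differences. All 38 blood endothelium genes were compared, with 0 higher and 2 (5.26%) lower past 2-fold and a median of -0.15. Among all genes compared 4.66% were lower, so this count is near the background. Pecam1, Cdh5 and Kdr, which define endothelium, were at -0.13, -0.10 and -0.08, and the list summed to 2213 against 2276 CPM. Esm1, a marker of sprouting tip cells, with 0 and 103 counts, was at least 19.9-fold lower (edgeR adjusted p = 0.0438). The clotting factor gene Vwf had 1220 and 4761 counts and was at -1.17. Among 10 lymphatic genes Prox1, the factor that sets lymphatic identity, had 14 and 156 counts, a log2 ratio of -1.79, while Lyve1 was at 0.07. Of 16 pericyte genes the potassium channel Kcnj8, Higd1b and Ndufa4l2 were past 2-fold lower, at -1.46, -1.41 and -1.22. The pericyte genes Pdgfrb and Rgs5 were at -0.04 and 0.06. Among erythroid genes other than globins, the transferrin receptor Tfrc and the haem enzyme Alas2 were at -1.48 and -1.15. Of the 4 platelet genes compared, Gp1bb was at -1.09 and Pf4, which macrophages share, at 1.18.

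Epithelial genes lay mostly above the median of all genes. Of 29 urothelial genes 3 were past 2-fold higher and 1 lower, with a median of 0.24, and of 32 junction and polarity genes 2 were higher and 0 lower, with a median of 0.34 and 27 above the median of all genes. The uroplakins, the plaque proteins of the urothelial surface, hardly differed, and 5 of them summed to 5707 CPM in the Ahnak KO and 5424 CPM in the WT ureter. The study reported Upk1b reduced in Ahnak KO ureters by qPCR, immunostaining and western blot. It reported p63 (Trp63) reduced by qPCR, with staining in 1 basal layer in place of several. In these 2 libraries Upk1b was at 0.26 and Trp63 at 0.19, within 2-fold and in the other direction. Keratins differed more. Of 17 compared, 5 were past 2-fold higher and 1 lower, with a median of 0.69. Krt7 (73581 and 63244 counts) and Krt20 (14586 and 10971), keratins of the upper urothelial layers, were both past 2-fold, Krt7 at 1.01, and Krt5 of the basal layer was at 0.73. Krt80 (645 and 166 counts), Krt6a (369 and 100) and Krt23 (897 and 369) were at 2.55, 2.36 and 1.99. Krt1 (30 and 181 counts) of the epidermis was lower, at -1.37.

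Involucrin, Ivl, a protein of the cornified envelope, had 14618 and 7216 counts, a log2 ratio of 1.80. The desmosome linker Dsp had 16981 and 12480 counts, a log2 ratio of 1.23 with an edgeR adjusted p of 0.0463. E-cadherin (Cdh1) was at 0.87, and Cldn1 at 1.43 as the only 1 of 11 claudins past 2-fold. The laminin chain Lamb3 of the epithelial basement membrane had 4431 and 3822 counts. Elf3, an epithelial transcription factor, had 3503 and 12809 counts and went the other way, at -1.08. In size the medians of the keratin, junction, urothelial and laminin lists were larger than in both same-genotype kidney pairs. The keratin median was over 17 genes in ureter but 10 in each kidney pair.

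Among developmental genes the Hox family, which sets position along the body axis, was the most shifted. Of 30 genes compared 8 were past 2-fold lower and 0 higher, 27 lay under the median of all genes, and the family median was -0.59. Hoxd4 had 453 counts in the Ahnak KO and 3302 in the WT ureter, a log2 ratio of -2.04. Hoxb6 (401 and 2561 counts) and Hoxb5 (307 and 1813) were at -1.84 and -1.72, and Hoxd10 (221 and 1246) at -1.63. Hoxa3, Hoxd11, Hoxc6 and Hoxd3 were between -1.38 and -1.16, so all 4 clusters had a member past 2-fold. Hoxd8 was at -0.01 and Hoxc9 at 0.37. The family median differed by 0.10 and 0.06 between kidneys of 1 genotype. Hoxb6 and Hoxd10 passed the fit of 6 libraries (edgeR adjusted p = 0.0299 and 0.0339), and the other 6 did not.

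Of 31 regulators of ureteric mesenchyme 24 lay under the median of all genes and 2 passed 2-fold, Pitx1 at -1.35 and Gata5 at -1.33. Tbx18 and Tshz3, factors needed for ureteral muscle, were at -0.37 and -0.82. In the Hedgehog pathway the ligand Shh, secreted by the urothelium, had 2515 and 1800 counts, a log2 ratio of 1.26. Its receptor Ptch1 (2435 and 5602 counts) and its targets Hhip and Gli1 lay on the other side, at -0.41, -0.41 and -0.39, and none of these 3 passed 2-fold. The Notch targets Heyl (413 and 1537 counts) and Hes1 (1673 and 6012) were at -1.08 and -1.05, while the receptors Notch1 and Notch2 were at -0.04 and 0.46.

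Of 37 WNT genes 5 were past 2-fold lower and 0 higher around a median of -0.02. They were the secreted antagonist Frzb (-1.28), the feedback inhibitors Nkd2 (-1.13), Rnf43 (-1.11) and Nkd1 (-1.04), and the receptor Fzd10 (-1.02). The ligands Wnt5a and Wnt7b were at 0.38 and 0.31. None of 39 BMP and TGF-beta genes passed 2-fold, and Tgfbr2 (2905 and 9994 counts) came nearest at -0.99. In the FGF and receptor tyrosine kinase list, Spry1 stood apart from its relatives Spry2 at -0.73 and Spry4 at -0.35, and Hgf (244 and 178 counts) and Kit were past 2-fold higher. None of 21 imprinted growth genes passed 2-fold, with Igf2 at 0.88 and Meg3 at -0.76 as the ends. The clock gene Clock had 1598 and 793 counts, a log2 ratio of 1.76 (edgeR adjusted p = 0.0339), while its partner Arntl was at 0.15. Of the nerve genes Gap43 was at -1.11 and the neurofilament Nefm had 327 and 211 counts, around a median of 0.14.

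**Figure D4:**
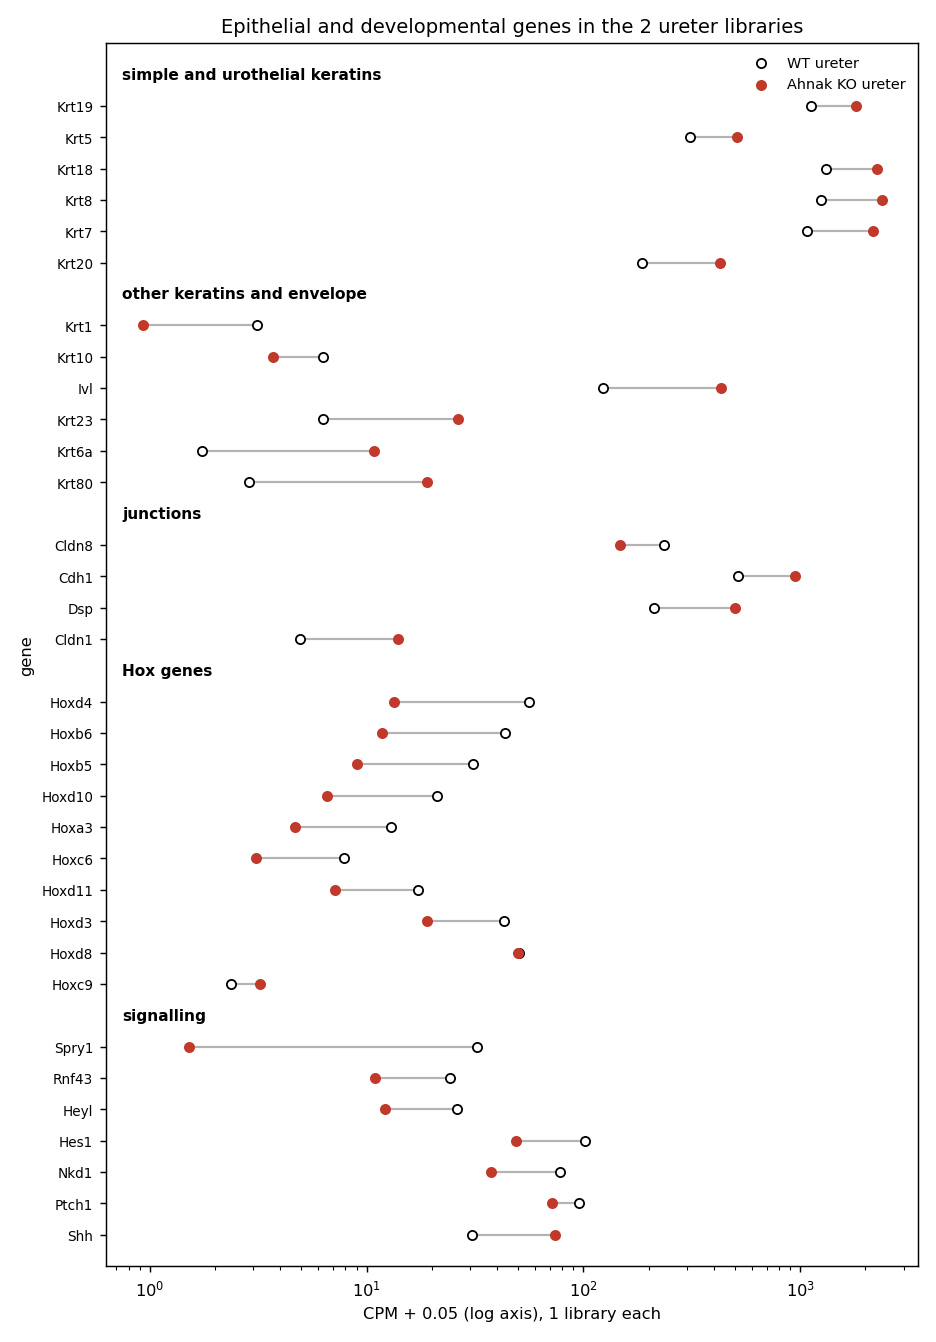
CPM + 0.05 of epithelial and developmental genes in the WT ureter (open circles) and the Ahnak KO ureter (red), 1 library each, on a log axis. Most keratins and junction genes lie to the right in the Ahnak KO library, while Krt1, Krt10, Cldn8, most Hox genes, Spry1 and the Notch and WNT feedback genes lie to the left.

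Proliferation genes shifted together by less than 2-fold. All 36 were compared, 0 passed 2-fold, 33 lay under the median of all genes and the median was -0.40. Mki67 was at -0.16, Top2a at -0.42, and Cdc6 and E2f1 both at -0.78. Histone genes, whose replication-dependent members carry no poly(A) tail, had 8 of 22 past 2-fold lower, 0 higher and a median of -0.81. Hist1h1c had 1074 and 4776 counts, a log2 ratio of -1.35. With the minimum lowered to 10 counts the median of 68 histone genes was 0.02 above that of all genes, so this shift holds only for the more abundant members. Cytosolic ribosomal protein genes (80 compared, 0 past 2-fold) and nuclear genes of oxidative phosphorylation (87 compared, 3 lower) had medians of 0.25 and 0.21, with 77 and 72 above the median of all genes. Over all genes, those with the shortest transcripts (216 to 2034 bases) had a median of 0.08, and longer groups had -0.06 to -0.02. Whether transcript length plays a part in these 2 medians was not tested.

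Matrix genes differed among themselves. In the fibroblast and matrix list 3 of 40 were past 2-fold higher and 3 lower, with a median of 0.34. Tenascin C (Tnc) was at 1.34, Ogn (16098 and 13088 counts) at 1.08 and periostin (Postn, 113005 and 94543) at 1.04. Elastin, Eln, had 16989 and 59425 counts, a log2 ratio of -1.02, the aggrecanase Adamts4 was at -1.60 and osteopontin (Spp1, 104 and 631 counts) at -1.66. Of 38 collagen chains Col25a1 and Col6a5 were past 2-fold higher at 2.44 and 1.31 and 4 were lower, led by Col13a1 at -1.68. The abundant Col1a1 and Col3a1 were at 0.06 and 0.33. In the integrin list the subunits Itga10 (137 and 1078 counts) and Itga11 were at -2.06 and -1.90 and Itga2 at 1.23. Of 202 solute carriers 13 (6.44%) were past 2-fold higher and 12 (5.94%) lower around a median of 0.02, against 2.91% and 4.66% of all genes. The amino acid carriers Slc7a2 (953 and 364 counts, edgeR adjusted p = 0.0299), Slc7a5, Slc1a4 and Slc7a1 were higher at 2.09, 1.44, 1.42 and 1.26, and the neuronal chloride carrier Slc12a5 was lowest at -1.80.

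The remaining families spread to both sides. Of 33 clustered protocadherins 4 were past 2-fold in each direction, and the members overlap, so Pcdhga9 (32 and 786 counts) and Pcdhga10 (205 and 94) are uncertain. Of 42 semaphorin, ephrin and slit genes 1 was higher and 5 lower, with Efna3 (0 and 170 counts) at least 32.8-fold lower and Sema4g at -1.20 (edgeR adjusted p = 0.0476). Of 20 serpins 3 were higher and 2 lower, the highest being Serpina3c (129 and 20 counts) and Serpina3g at 2.35 and 1.82. Among 34 cathepsin and lysosome genes 2 were lower, Atp6v1g2 at -2.01 and the neutrophil gene Ctsg at -1.35, while Ctsl was at 0.73.

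Markers of neighbouring tissues were low, and their part in the results was not tested. Of 28 nephron genes 9 reached 100 counts, and 3 were past 2-fold higher. The nephron progenitor gene Cited1 had 153 and 24 counts, Ass1 142 and 32, and Wt1, which mesothelium shares, 268 and 196, log2 ratios of 2.46, 2.16 and 1.13. Cited1 and Ass1 passed the minimum only through the Ahnak KO library. The nephron progenitor genes Six2 (0 and 55 counts) and Eya1 (20 and 87) were under it and lower in the Ahnak KO ureter, and with a minimum of 10 counts the nephron median, less that of all genes, went from 0.54 to 0.07. Of 11 collecting duct genes Elf5 (114 and 60 counts) was past 2-fold higher at 1.34. The fat hormone gene Adipoq had 170 and 18 counts, a log2 ratio of 2.77, while Fabp4, which endothelium shares, was at 0.99 and Pck1 had 31 and 205 counts. Of 8 liver and gut genes Lgals4, Afp and Serpina1a were lower, at -1.12, -1.05 and -1.04. The bone factor Sp7 (46 and 347 counts) was at -1.79, and of 8 mesothelial genes Wt1 and Gpm6a were past 2-fold higher while Msln was at -0.61. Of 14 cornified epithelium genes 3 were higher and 1 lower. Among 5 mucin and secretory genes only Ltf passed 2-fold, and none of the 2 adrenal and 5 gonad genes did.

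Set against the kidney pairs, 23 of the 45 lists with 10 or more genes had a ureter median farther from 0 than the median between both replicate pairs of kidneys. The neutrophil (-1.25 against at most 0.40), histone (-0.79 against 0.37), Hox (-0.57 against 0.10), proliferation (-0.38 against 0.20) and keratin (0.71 against 0.27) lists were among them, all less the median of all genes. The macrophage list passed narrowly (0.64 against 0.56). The immediate early, hypoxia, glycolysis, heat shock and unfolded protein, interferon response, cytokine and chemokine, and antigen presentation lists did not. The genes behind these medians differed between the tissues. The neutrophil median was over 21 genes in ureter and over 14 and 13 in the Ahnak KO and WT kidney pairs. The keratin median was over 17 genes in ureter and 10 in each kidney pair. The lists were also chosen with earlier results of these data known. This sets 2 ureters against 2 pairs of another tissue and is a description, not a test. For the keratin, proliferation and macrophage lists replicate 2 of both kidney genotypes lay on the side of the ureter with its tag. The keratin medians of replicate 1 over replicate 2, for example, were -0.27 in the Ahnak KO and 0.20 in the WT kidneys. For the neutrophil list replicate 2 lay on the other side, with -0.40 and 0.36.

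**Figure D5:**
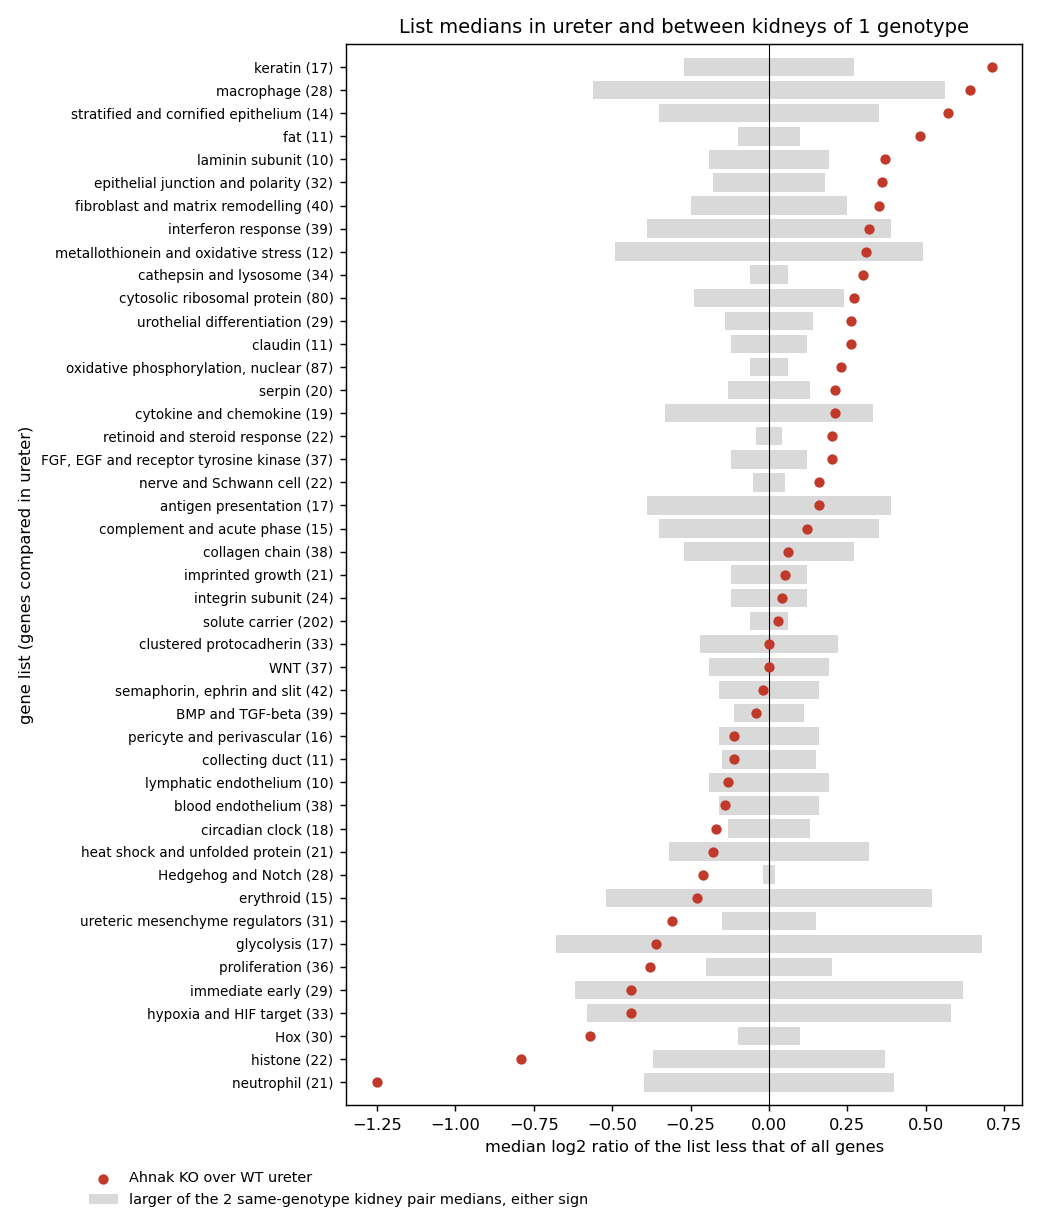
Median log2 ratio of each list with 10 or more genes compared, less the median of all genes. Red points are Ahnak KO over WT ureter and grey bars reach, in both directions, the larger of the 2 medians between kidney replicates of 1 genotype. The genes of a list that were compared can differ between ureter and kidney. The neutrophil, histone and Hox points lie left of their bars and the keratin point right of its bar, while the hypoxia, glycolysis and immediate early points lie inside theirs.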

How the data were processed

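Bulk RNA-seq of mouse kidney and ureter was used in 6 libraries. The authors deposited 1 table with an estimated read count, FPKM (a length- and depth-normalized level) and TPM for 24532 genes. The deposited estimated counts are whole numbers and not normalized, and the deposited FPKM are the authors' normalized values. TPM was not used. The study's methods name a stranded mRNA kit, Cutadapt, STAR and Cufflinks with GRCm39. The submitters' processing notes name Trimmomatic 0.38, HISAT2 2.1.0, StringTie 1.3.4b and mm10, and the table is named for mm10. Which of these made the table could not be settled, and how reads of overlapping or copied genes were shared out is not given in the sources used here.

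By gene number 24462 genes were found in RefSeq of GRCm38.p6, which also gave back 27 symbols that stood as dates in the table. Ureter counts were scaled by library size and TMM factors and compared as log2(CPM + 0.5) in Python 3.11.15 (numpy 2.4.6, pandas 2.3.3, scipy 1.17.1). Genes with 100 or more counts in the higher library were compared, and a fold of 2 served as the threshold with no test. Intervals are exact (Clopper-Pearson, 95%). edgeR 4.0.16 in R 4.3.3 fitted all 6 libraries with 4 groups (filterByExpr, quasi-likelihood test, Benjamini-Hochberg adjustment). The test was planned for counts and run on estimated counts. The edgeR fit and the intervals were tested on simulated data. Kidney libraries held 55744703 to 66095616 counts and were scaled by library size.

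Members, the 40 gene lists and 15 families defined by symbol were chosen with earlier results of these data known. Genes named were Ahnak, the 15 highest and 15 lowest ratios, and of each list its defining members and those with the largest ratios. Arhgef39, Cnot6, Hspa8, Amd2, Pnp, Phf11c, Dpm1, Dpm1-adnp, Prn and Rad54b were named after their values were seen. Tpr, Adgrf2, Mir31, Rpp14, Gm20605 and Mir2139 were named for overlap with an extreme gene. Mitochondrially encoded genes matched no symbol. Alternatives used library size, DESeq2 1.42.0 size factors, library size without Rn45s, a pseudocount of 0.1, minimums of 10 counts in the higher or 100 in both libraries, log2(FPKM + 0.1) and, added after seeing the data, centring within 10 bins of transcript GC content. Some genes are not reported here.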

Additional observations from a re-analysis of the deposited data

Results flagged for a closer look

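In the edgeR fit of all 6 libraries, the effect of genotype in ureter less that in kidney had an adjusted p under 0.05 for 19 of 17557 genes (2174 at an unadjusted p under 0.05), and 15 of the 19 had 100 or more counts in the higher ureter library. The fit takes its spread from the kidney pairs, with 1 ureter library a genotype. The ureter effect was lower than the kidney effect, on the log2 scale, for Pou3f3 (-12.93), Prnd (-6.89), Gm12191 (-6.18), Gm3055 (-5.77), Spry1 (-4.53), Neat1 (-3.34), Cdh16 (-2.95) and Pogk (-2.26). It was higher for Rn45s (4.02), Rnf8-cmtr1 (3.83), Lrrc8d (3.66), Fam107a (3.64), Cited1 (3.50), Deptor (3.31) and Traf3 (3.07). Pou3f3 was at 0 in the Ahnak KO ureter, so its fitted value depends on the prior count and is no bound.

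Counts behind these values show how the tissues differ. Deptor, an mTOR inhibitor (chromosome 15, 55112317 to 55259273), had 2185 and 386 counts in the Ahnak KO and WT ureters and 1953 to 2340 in the 4 kidneys. Pogk had 411 and 4100 counts in the ureters and 4125 to 5889 in the kidneys. Traf3, an adaptor of tumour necrosis factor receptors, had 1111 and 243 counts in the ureters, and Fam107a 338 and 50. The kidney cadherin Cdh16 had 9 and 126 counts in the ureters and 31926 to 42311 in the kidneys. Rnf8-cmtr1 differed in kidney instead, with 529 and 542 counts in the Ahnak KO and 3415 and 2939 in the WT kidneys, against 448 and 292 in the ureters. Gm3055 had 2 and 157 counts in the ureters. Prnd and Gm12191 overlap other genes and Rnf8-cmtr1 is named as a readthrough, so these values are uncertain.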

How the results depend on the processing

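With 1 ureter library a genotype no library could be left out. No paired analysis was possible because each ureter group has 1 library, and the tag that it shares with a kidney lies within its genotype. The count of genes more than 2-fold higher (393) became 715 with a minimum of 10 counts and 49 in the edgeR fit of 6 libraries, and stayed within 1.5 times under the other 7 alternatives. The count lower (628) became 961 with library size alone, 304 with 100 counts in both libraries and 51 in the edgeR fit, and stayed within 1.5 times under the other 6. The minimum of 100 in both libraries leaves out genes near 0 in 1 library by construction, and the edgeR fit applies a test in place of a fold. Among lists whose median, less that of all genes, exceeded the larger kidney pair median, the sign changed only with a minimum of 10 counts, for the lymphocyte, dendritic and mast cell (-0.20), platelet and megakaryocyte (0.63), gonad and genital duct (0.16) and histone (0.02) lists. Of 432 list values under 8 alternatives 417 moved by no more than that kidney median and 11 others moved by more. The 417 include all 54 under each of library size alone, DESeq2 size factors and library size without Rn45s. Subtracting the median of all genes cancels such a rescaling, so those values were nearly fixed in advance. For 227 named genes, centred in the same way, 1436 values stayed within the counting interval and 278 left it with the same sign. Only 1 changed sign, Hist1h2be, to 0.57 with FPKM. The cause was not tested. Low depth in the Ahnak KO ureter limits genes near 0: a gene listed at 0 there may lie anywhere under 0.0881 CPM.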
